A study of Apis mellifera with 6 samples.

Results

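The hexamerins of the honeybee are a family of 4 genes, *Hex70a*, *Hex70b* (written HEX70b in the table of the study), *Hex70c* and *Hex110*. The members were chosen by name, as the rows whose gene ID begins with Hex70 or is Hex110, and these were 4 of the 9362 genes listed for worker antennae. Apart from a few genes at its head, the table used here runs in alphabetical order of the gene ID as far as LOC724262, and every share of listed genes given below rests on this part of the genome's genes. The study sequenced polyA RNA of antennae from adult *dsx* stop/stop worker bees and from wt worker bees, with 3 libraries for each genotype and a pool of 5 bees behind each library. In the *dsx* stop/stop bees both copies of *dsx*, which encodes a transcription factor of sexual development, carried stop mutations that CRISPR-Cas9 had introduced separately into each bee, by injection of the egg. All mutant alleles therefore differ in origin, and each pool mixes bees that were mutated independently. The wt bees carried no induced mutation.

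Hexamerins are storage proteins. They descend from the oxygen-carrying hemocyanins of arthropods, are made in large amounts by the larval fat body, are secreted into the haemolymph, and are taken up again and broken down during metamorphosis as a source of amino acids for the adult body. In the honeybee, *Hex70b* and *Hex70c* are known mainly as larval genes, whereas transcripts of *Hex70a* and *Hex110* have also been found in adults. The antenna is a sensory appendage and is not known as a site of hexamerin storage.

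The level of each gene is given as its base mean, which is the authors' mean over the 6 libraries of the read counts after each count was divided by the size factor of its library. It averages both genotypes, so it describes worker antennae of the study as a whole and holds no comparison of *dsx* stop/stop with wt bees. The table holds 1 value per gene, and the spread between pools could not be computed. The errors given with the base means are counting errors (1 SE) for 6 libraries of the size factors found here, from 0.202 to 2.36, on the premise that the level was the same in all of them. They do not cover differences between pools. They are also approximate. The size factors were inferred from the lowest base means, and most other low base means were not exact sums of the values used. As a check of the tissue, 6 of 11 genes chosen as marks of chemosensory tissue were listed, with base means from 60.5 to 58480. The others, *Orco*, *Or2*, *Obp1*, *Obp2* and *CSP5*, were not analysed here. The check therefore holds no odorant receptor or odorant-binding protein gene. The chemosensory protein genes *CSP1* (58480), *CSP3* (48898) and *CSP4* (2303) were far above the median of the listed genes, which was 275.5, and *CSP6* (293.7) was close to it. *CSP2* (114.3) and the gustatory receptor gene *Gr10* (60.5) were below it. The mutated gene *dsx* had a base mean of 1278, which cannot show how the genotypes differ.

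All 4 hexamerin genes were assigned reads in the antennae, and all 4 were below the median of the listed genes. Reads that fit more than 1 Hex70 gene would have been divided among them. Whether the value of *Hex70c* holds reads of another Hex70 gene was not tested. *Hex70a* had the highest base mean of the family at 32.6 ± 2.93. *Hex110*, the largest hexamerin of the bee, had 27.3 ± 2.68. *Hex70b* had 19.2 ± 2.25. *Hex70c* had 1.22 ± 0.568, far below the others. Together the family added up to 80.3 normalised read counts, of which the 3 Hex70 genes gave 53.1.

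**Figure D1:**
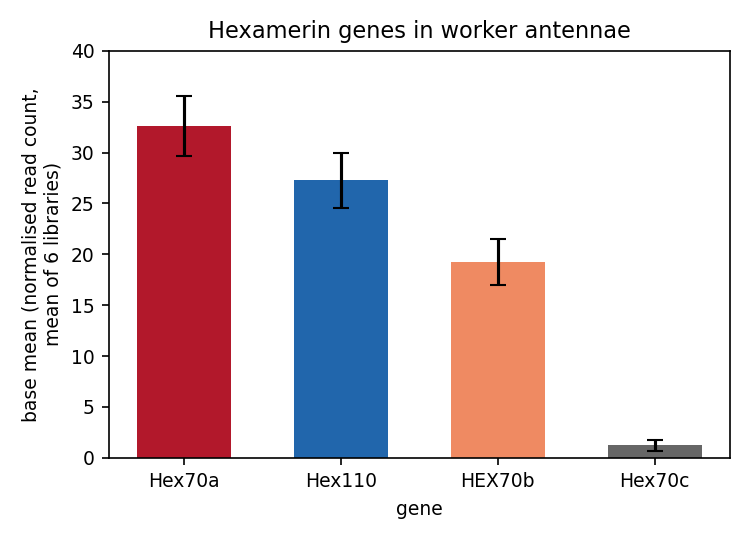
Base mean (normalised read count, mean of 6 libraries of both genotypes) of the 4 hexamerin genes, with bars starting at 0 and error bars of 1 counting SE. *Hex70a*, *Hex110* and *Hex70b* stand between 19.2 and 32.6 and *Hex70c* stands at 1.22.

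*Hex70a* lies on chromosome LG8 of the Amel_HAv3.1 assembly from 11848693 to 11852800, a gene of 4108 bp with 1 annotated transcript. *Hex110* lies on LG11 from 13517503 to 13521591, spans 4089 bp and has 2 annotated transcripts. *Hex70b* lies on LG8 from 11855314 to 11859108 and spans 3795 bp, and *Hex70c* lies on LG8 from 11864211 to 11868236 and spans 4026 bp, each with 1 annotated transcript. The spans are close to each other, so dividing by them changes the order of the levels little, although they include introns and are not transcript lengths.

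Per kilobase of gene span, the level of *Hex70a* was 7.94 ± 0.714, that of *Hex110* 6.67 ± 0.656, that of *Hex70b* 5.07 ± 0.594 and that of *Hex70c* 0.304 ± 0.141 normalised read counts. Neighbours in this order were not all apart. The level of *Hex70a* was 1.19 times that of *Hex110*, and the 95% counting interval of this ratio, from 0.918 to 1.55, includes equal levels. The level of *Hex110* was 1.32 times that of *Hex70b*, with an interval from 0.975 to 1.78 that also includes equal levels. *Hex70a* stood at 1.57 times *Hex70b*, with an interval from 1.17 to 2.09. Only *Hex70c* was apart from all 3 others by these intervals. The level of *Hex70a* was 26.1 times that of *Hex70c* (10.3 to 66.0), that of *Hex110* 21.9 times (8.65 to 55.6) and that of *Hex70b* 16.7 times (6.52 to 42.6). These intervals cover counting error alone, and no test between genes was made.

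The number of reads behind each value sets the counting error with which the order can be read. The spread between pools also bears on the order and could not be computed. If each gene had the same level in all libraries, the size factors found here give an estimate of the reads behind each base mean. This estimate is about 269 reads for *Hex70a*, 225 for *Hex110*, 159 for *Hex70b* and 10 for *Hex70c* over the 6 libraries. Without the premise of equal levels, *Hex70c* could rest on as few as 2 or as many as 17 reads by these size factors, depending on which libraries held them. This range is approximate, because the size factors did not reproduce most other low base means exactly. By the same size factors, a single read in the library with the lowest of them adds 0.825 to a base mean. That is 67.4% of the base mean of *Hex70c*, but 2.53% of that of *Hex70a*. Whether *Hex70c* reads came from 1 pool or from several was not determined here.

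Among the 9362 listed genes, the base mean of *Hex70a* was higher than that of 25.3%, close to the lower quartile of 31.6. *Hex110* was above 23.9% and *Hex70b* above 21.1% of the genes. *Hex70c* was above 4.81%, or 450 genes.

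**Figure D2:**
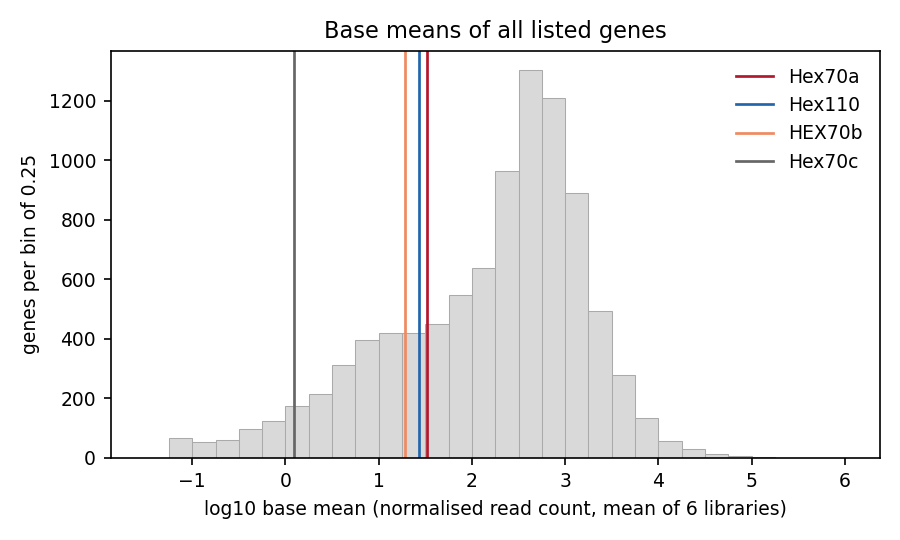
Number of genes by log10 base mean (bins of 0.25; normalised read count, mean of 6 libraries of both genotypes) for the 9362 listed genes, with a vertical line for each hexamerin gene. All 4 lines are left of the main peak of the distribution, and *Hex70c* is in its lower tail.

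The 3 Hex70 genes are neighbours on LG8 within 19544 bp. Between *Hex70a* and *Hex70b* are 2513 bp with no other annotated gene. Between *Hex70b* and *Hex70c* are 5102 bp, in which the long noncoding RNA gene LOC107964857 lies, from 11861933 to 11864248. The last 38 bp of this gene by coordinate overlap *Hex70c*. Its base mean was 0.152, a value that was itself taken as 1 read in 1 library when the size factors were derived. Whether reads were shared between the overlapping genes was not tested. The order of the Hex70 genes by base mean was also their order along LG8, with *Hex70a* at 32.6, *Hex70b* at 19.2 and *Hex70c* at 1.22.

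Most listed genes around the Hex70 genes had a higher base mean than *Hex70a*, as did most of all listed genes. The next gene on the side of *Hex70a*, LOC409353, ends 1027 bp away and had a base mean of 467.7. The next gene on the side of *Hex70c*, the protein-coding gene LOC102653693, starts 3101 bp away and had a base mean of 0.825. This is a value that was itself taken as 1 read, in the library with the lowest size factor, when the size factors were derived. Within 100 kb on either side of the Hex70 genes, 26 other genes were listed, with a median base mean of 328.2. Of these, 22 had a higher base mean than *Hex70a*, and 21 had a higher level per kilobase of gene span. Among all listed genes, *Hex70a* was above 25.3% by base mean and above 28.6% per kilobase, so most were also higher. The 4 neighbours with a lower base mean were LOC102653693, LOC107964857, the protein-coding gene LOC102656792 at 0.884 and the long noncoding RNA gene LOC107964882 at 29.1.

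**Figure D3:**
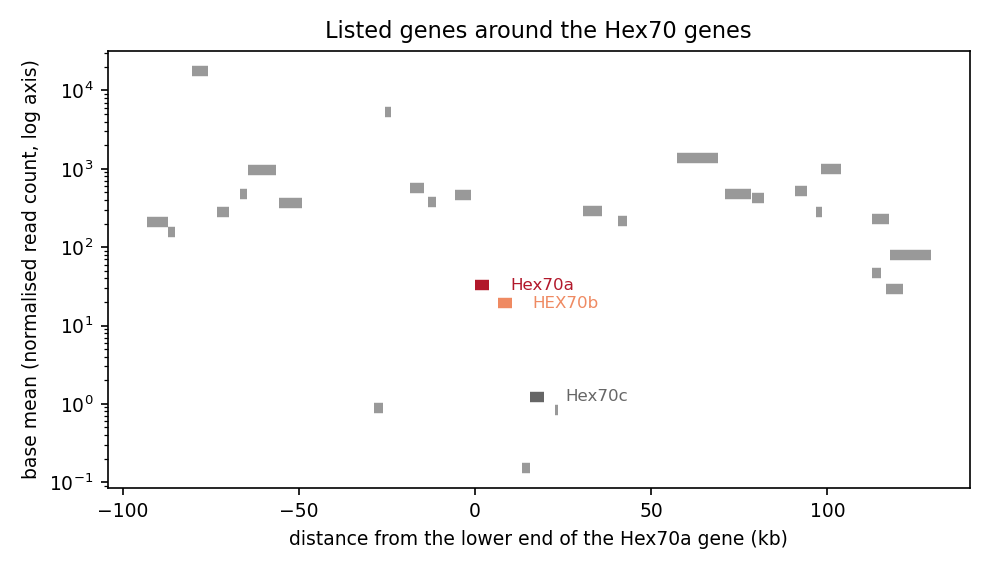
Base mean (log axis; normalised read count, mean of 6 libraries of both genotypes) of the listed genes within 100 kb of the 3 Hex70 genes, each drawn as a bar over its span, against the distance from the lower end of *Hex70a* in kb. The Hex70 genes step down to 1.22 at *Hex70c*, while 22 of the 26 other genes (grey) are above *Hex70a*. Among all listed genes, *Hex70a* is above 25.3% by base mean.

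*Hex110* stands alone on LG11, with the troponin C gene *TpnCIIa* ending 103 bp before it and LOC725244 starting 1674 bp behind it by coordinate. Neither of these neighbours was analysed here. Within 100 kb on either side, 26 other genes were listed, with a median base mean of 354.8, and 20 of them had a higher base mean than *Hex110*. Per kilobase of gene span, 23 of the 26 were higher. Among all listed genes, *Hex110* was above 23.9% by base mean and above 27.0% per kilobase, so most were also higher. The listed genes nearest to *Hex110* were LOC551683 on one side, with a base mean of 874.4, and LOC100578540 on the other, with 24.5.

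Hexamerin transcription in insects is known to respond to ecdysteroids and juvenile hormone. Genes of these pathways, together with genes of insulin and TOR signalling, were looked up in the same antennae. Of the 13 genes on this list, 8 were listed, among them the insulin pathway genes *ILP-2* and *InR-2*. The medians given here cover all 8, so they are not those of the ecdysteroid and juvenile hormone genes alone. The median base mean of the 8 was 270.2, against 23.2 for the 4 hexamerin genes and 275.5 for all listed genes. Per kilobase the contrast was smaller. Their levels per kilobase of gene span ranged from 0.335 to 3176, with a median of 8.89, against a range from 0.304 to 7.94 and a median of 5.87 for the 4 hexamerin genes and a median of 51.6 for all listed genes. The highest per kilobase was *Jhe*, which encodes the esterase that degrades juvenile hormone, at 3176 and a base mean of 8685. *E75*, a nuclear receptor gene induced by ecdysone, had 70.3 per kilobase and the highest base mean of the list, 11351. *Kr-h1*, which mediates the response to juvenile hormone, had 53.0 per kilobase. The gene of the ecdysone receptor, listed as Ecr, had 5.27 per kilobase, between *Hex110* and *Hex70b*, although it had more reads than any hexamerin gene, with a base mean of 636.3. LOC724216, which has the synonym *JHAMT* for the methyltransferase of juvenile hormone synthesis, had 0.335 per kilobase, close to the 0.304 of *Hex70c*. *Br-c*, an early ecdysone response gene, had 0.828 per kilobase, and the insulin receptor gene *InR-2* had 1.56. Both were below *Hex70b* on this scale, but their base means of 48.6 and 79.8 were above those of all 4 hexamerin genes. The insulin-like peptide gene *ILP-2* had 12.5 per kilobase, above the hexamerin genes, and a base mean of 21.6, between *Hex110* and *Hex70b*. The gene spans include introns, so the level per kilobase is understated most for genes with long introns.

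Of 17 genes for other secreted proteins of the fat body and haemolymph, 2 were listed, and both were higher than the hexamerin genes. They were the antimicrobial peptide genes *Def1*, with 259.2 per kilobase, and *Apid1*, with 215.2 per kilobase. The other 15, among them the vitellogenin gene *Vg*, which marks the fat body, were not analysed here, so the amount of fat body or haemolymph RNA in the antennal samples was not measured and its part in the hexamerin values was not tested. In RNA of a whole appendage, few cells with much hexamerin RNA and many cells with little of it cannot be told apart. Of the 6 listed genes of chemosensory tissue, all had a higher base mean than *Hex70a*, and 5 also had a higher level per kilobase. Most of all listed genes were also above *Hex70a* on both scales. *Gr10* had 4.50 per kilobase, below the 5.07 of *Hex70b*. The 3 listed neuronal genes, *Dop1*, *5-HT1* and *5-HT2alpha*, had 1.05, 0.631 and 4.44 per kilobase, all lower than *Hex110* and *Hex70b* and higher than *Hex70c*. Without division by the gene span the direction turned, since their base means of 45.6, 66.9 and 137.7 were above those of all 4 hexamerin genes.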

How the data were processed

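Antennal RNA of 3 *dsx* stop/stop and 3 wt pools of 5 bees was sequenced as single-end reads of 150 bp. The authors mapped the reads to the transcriptome of Amel_HAv3.1 with kallisto and compared the genotypes with DESeq2. Program versions for these steps are not given in the sources used here. The methods of the study say that the estimated counts were scaled by the TPM method, which also divides by transcript length. The lowest base mean was shared by 32 genes whose spans ran from 410 to 39941 bp, which counts divided by size factors allow and values divided by length would rarely give, so the base means were treated as not divided by length. The authors deposited 1 table for the comparison. Its base mean, a mean of normalised counts over all 6 libraries, was the only measurement used, with decimal commas read as points. The other columns hold the results of the authors' own genotype comparison (log2 fold change, its standard error, Wald statistic, p-values) and were not used, so no difference between genotypes is given. The table has 0 columns of values per library.

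The members and lists were chosen with earlier results of these data known. Named in the text are the 4 members, the listed genes of the lists, the annotated neighbours of the members and *dsx*. The genes within 100 kb and the division by gene span were chosen after the data were seen. Size factors were derived from the lowest values of the table: a base mean below 1 that 3 or more genes had in common, and that smaller ones did not add up to, was taken as 1 read in 1 library. The result was used only if it held exactly 6 values and the size factors had a geometric mean near 1. It met both conditions, from 93 genes, so neither is a check of the size factors. Most other low base means were not exact sums of these values, so counts per library were not recovered and the counting errors are approximate. The size factors also spread more widely than the numbers of mapped reads in the paper, and the reason was not tested. The counting error of a base mean is the square root of its product with the summed inverse size factors, divided by 6. Positions and spans come from the RefSeq annotation of Amel_HAv3.1, in which 9361 of the 9362 IDs were found. Reads that fit more than 1 Hex70 gene would have been divided by kallisto, and how alike their sequences are was not examined. Apart from a few genes at the head of the table, genes sorted behind LOC724262 by ID were not used here, which limits all percentiles, neighbour counts and lists. The software was Python 3.11.15, numpy 2.4.6 for the errors, pandas 2.3.3 for the tables and matplotlib 3.10.9 for the plots.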

Additional observations from a re-analysis of the deposited data

How the results depend on the processing

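The order *Hex70a*, *Hex110*, *Hex70b*, *Hex70c* was the same per kilobase of gene span and without division by length. The percentiles depend on the genes ranked. Among the 7862 genes that reached a base mean of 10, *Hex70a* was above 11.1%, *Hex110* above 9.32% and *Hex70b* above 6.07%, and *Hex70c* is not among these genes. Among the 7610 protein-coding genes, the percentages were 14.5 for *Hex70a*, 13.5 for *Hex110*, 11.4 for *Hex70b* and 2.41 for *Hex70c*. Ranked by level per kilobase of gene span, they were 28.6, 27.0, 24.5 and 5.44 in the same order. These shifts follow from which genes or lengths enter the ranking. With 6 equal size factors of 1, the counting errors were 2.33 for *Hex70a*, 2.13 for *Hex110*, 1.79 for *Hex70b* and 0.452 for *Hex70c*. Leaving out a library was not possible with 1 value per gene. Division by coding or transcript length, protein identity and residue shares were planned and not run, because neither lengths nor sequences of transcripts and proteins were used here. No paired analysis was possible because the column used averages all 6 libraries. Depth limits *Hex70c* most, with a relative counting error of 46.4% against 8.99% for *Hex70a*.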
